A study of Mus musculus with 18 samples.

Results

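The collagen genes of mouse epididymal white adipose tissue (eWAT) are described here, class by class. They were taken by symbol, as every gene named Col, a number, the letter a and a number. The table of the Parkin experiment lists 35 of them among 21756 genes, and the table of the AAV8 experiment lists 42 among 27356. RNA was sequenced from the eWAT of 5 Control f/f mice, whose label gives floxed alleles and no Cre, and of 5 ParkinAdi mice, in which Cre under the promoter of adiponectin deletes the floxed allele. All 10 were fed a high-fat diet (HFD), and the methods of the study describe its mice as males on a C57BL/6 J background aged about 4 to 6 months, with 45% fat in the diet. The Cre acts in adipocytes, whereas eWAT also holds fibroblasts, macrophages, vessels and mesothelium, so the deletion does not reach every cell that makes collagen. In the AAV8 experiment, wild-type C57BL/6 J males aged 2 months were fed HFD for 4 weeks, AAV8-Nqo1 (in full AAV8-hAdp-m-Nqo1, a virus that carries mouse Nqo1) was injected into the left fat pad and a control virus (AAV8-Control) into the right, and the pads were taken 4 weeks later (4 pads per vector by the labels). The Control f/f mice are called C1 to C5 and the ParkinAdi mice P1 to P5, following the columns of the deposited table, which carry a mouse number each.

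Collagens are extracellular proteins in which chains wind into a triple helix. Fibrillar collagens form the rope-like fibres of connective tissue, basement membrane collagens form sheets under epithelium and endothelium and around each adipocyte, and the microfibrillar collagen VI forms beaded filaments between the cell surface and the fibres. Transmembrane collagens cross the plasma membrane of the cell that makes them. In adipose tissue the matrix surrounds cells that swell as they store lipid, and fibroblasts, progenitor cells, endothelium and adipocytes all contribute to it.

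Values per mouse are regularized log (rlog) values as the authors deposited them, a log2 scale on which noisy differences between libraries are drawn toward 0. The depth of each library is unknown because the rlog table keeps no counts. Adipocyte markers stood high in every library (Adipoq 15.91 to 17.99, Plin1 14.40 to 15.08). The library labelled P2 held transcripts of the epididymal duct, a neighbour of the pad (Ces5a 20.05 against 5.59 to 8.45 in the other 9 mice) and of smooth muscle (summed level of 10 markers 16.63 against 13.68 to 14.25 on the log2 scale). The library labelled P5 held others of the duct, with Rnase10 at 10.81 against 3.78 to 5.26 in the other 9 mice, Defb20 at 9.46 against 2.89 to 5.71, and Adam7 at 10.15, between 16.25 in P2 and 6.51 to 8.20 in the rest. The mean level of 6 duct markers was 12.42 in P2, 8.43 in P5, 7.62 in C5 and 5.65 to 6.28 in the other mice. The libraries also fell into 2 sets by how their values moved with exon length across genes. Longer genes were higher in C1, C2, C3, P1, P2 and P5 (Spearman rho 0.38 to 0.51 across genes) and lower in C4, C5, P3 and P4 (rho −0.54 to −0.47). Adipoq separated the same sets, at 15.91 to 16.81 in the first and 17.25 to 17.99 in the second. Plin1 did not (14.40 to 15.08 and 14.88 to 15.00). The collagen genes tested are long, with a median exon length of 7833 bases against 3492.5 over all genes tested, and all 31 had a higher mean in the first set, as did 52.5% of all genes tested. Because the sets come from the values themselves, they are a description, and differences between genotypes are given over all 10 mice and within each set.

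Genotypes were compared by a two-sided limma test in which genes entered when their mean rlog reached log2 of 10 (19012 genes), with Benjamini-Hochberg adjustment over all of these. Of the 35 collagen genes, 31 passed this minimum, and Col24a1, Col6a4, Col9a3 and Col10a1 did not. No collagen gene differed between ParkinAdi and Control f/f eWAT at an adjusted p of 0.05, and neither did any of the 19012 genes (percent called: 0), with a smallest adjusted p of 0.902 among the collagens and 0.620 over all genes. At an unadjusted p of 0.05, 1 of 31 collagen genes was lower in ParkinAdi mice (Col6a2) and 0 were higher, where 3.56% of all genes tested were lower and 1.46% higher (5.02% either way). With each library's trend along exon length removed, the split was 4 lower and 1 higher, against 4.68% and 2.29% of all genes. In a model with a term for the library set, 7 collagen genes were lower (Col4a1, Col4a2, Col5a1, Col5a2, Col6a1, Col6a2 and Col16a1) and 2 higher (Col4a3 and Col4a6) at an unadjusted p of 0.05, where 7.33% of all genes were lower and 4.43% higher. The smallest adjusted p in that model was 0.207 among collagens and 0.203 over all genes, so 0 genes were called. Either way, 11.8% of all genes were under an unadjusted p of 0.05 with the term, against 5.02% without it. The term was drawn from the same values that it adjusts, so p-values with the set term, here and below, are descriptions. Without the library labelled P2 the same model gave 5 lower and 3 higher, against 7.29% and 4.8% of all genes.

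The median difference, ParkinAdi minus Control f/f, was −0.12 (log2) over the 31 collagen genes and 0.03 over all genes tested. By class it was −0.23 over 7 fibrillar, 0.32 over 6 basement membrane, −0.19 over 5 microfibrillar and 0.55 over 2 transmembrane genes. It was −0.38 over 4 fibril-associated genes, −0.20 over the 2 multiplexins and 0.19 over 2 short-chain network genes. Single mice moved these medians: without C1 the fibrillar median was −0.08 and the microfibrillar 0.05, the basement membrane median lay between 0.16 (without C5) and 0.50 (without C1), and the transmembrane median was 0.14 without the library labelled P2. Over all mice the difference was below 0 in 54.8% of the 31 genes and in 43.1% of all genes tested. Of the 31 genes, 12 were below 0 in both library sets (38.7%, against 25.3% of all genes) and 10 were above 0 in both (32.3%, against 32.9%). The groups of 5 mice overlapped in all 35 collagen genes, and did not overlap in 0.757% of all genes tested with ParkinAdi lower and in 0.305% with ParkinAdi higher.

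**Figure D1:**
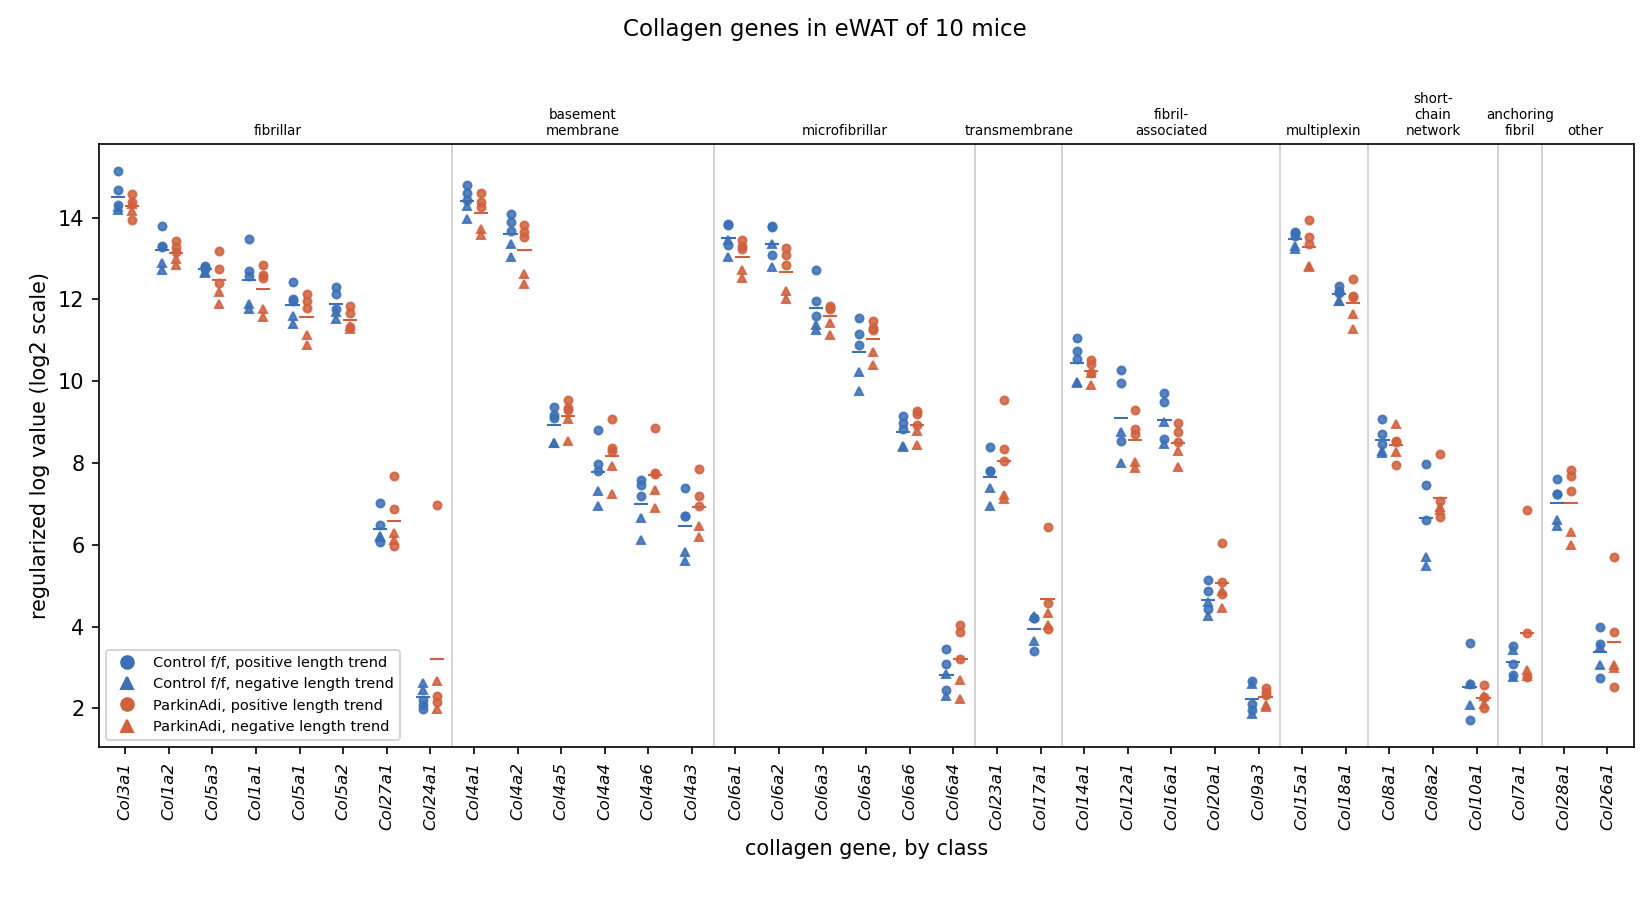
Regularized log values (log2 scale, vertical axis) of the 35 collagen genes (horizontal axis, by class) in 5 Control f/f (blue) and 5 ParkinAdi (orange) mice. Each point is a mouse, short lines are group means, circles mark libraries with a positive and triangles those with a negative trend along exon length. The genotypes overlap in every gene, triangles sit below most circles, and Col24a1, Col7a1 and Col17a1 each have a single high ParkinAdi point, the library labelled P2.

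The fibrillar collagens included the highest collagen of the tissue. Per kilobase of the longest coding transcript, the authors' mean normalized count was highest for Col3a1 (4119 per kb), the chain of collagen III, which makes up the thin fibres of distensible tissue. Among the fibrillar genes Col1a2 was next at 1827 per kb, rank 7 of all collagens. Col1a1, which forms collagen I with Col1a2, was at 1081 (rank 9), just under Col5a3 at 1087 (rank 8). Rlog values of Col3a1 were 15.13, 14.67, 14.30, 14.19 and 14.25 in C1 to C5 and 14.58, 13.93, 14.34, 14.17 and 14.39 in P1 to P5. Mouse C1 was the highest and the library labelled P2 the lowest, and the other mice lay together. The difference was −0.23 ± 0.21 (SE), at −0.40 within the positive set and 0.03 within the negative set. Col1a2 differed by −0.07 ± 0.21, with a 95% confidence interval of −0.52 to 0.39.

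Col1a1 had values of 13.48, 12.70, 12.57, 11.77 and 11.89 in C1 to C5 and 12.59, 12.52, 11.77, 11.57 and 12.85 in P1 to P5. Its spread followed the library sets more than the genotypes: the mean of the positive set lay 1.04 above that of the negative set, and the genotypes differed by −0.22 ± 0.35. Within a library, Col1a1 minus Col1a2 was −0.73 to −0.32 in the positive set and −1.26 to −0.83 in the negative set.

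Collagen V, which starts collagen I fibrils and sets their width, had chains at lower levels in ParkinAdi mice without passing the adjusted test. Col5a2 was at 12.31, 12.13, 11.76, 11.52 and 11.70 in C1 to C5 and at 11.84, 11.32, 11.36, 11.28 and 11.68 in P1 to P5. C1 and C2 stood above every ParkinAdi mouse, and C3, C4 and C5 lay within the ParkinAdi range. The difference was −0.39 ± 0.18 (unadjusted p = 0.053), with −0.46 in the positive set and −0.29 in the negative set. Col5a1 differed by −0.30 ± 0.27, with −0.16 and −0.50 in the sets. The adjusted p was over 0.9 for both, and with the set term the unadjusted p was 0.010 for Col5a2 and 0.032 for Col5a1.

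Col5a3, a chain found in some collagen V molecules, was at 12.65 to 12.80 in the Control f/f mice (SD 0.07) and at 11.90 to 13.19 in ParkinAdi mice (SD 0.50). Its lowest values were those of P3 and P4 (12.18 and 11.90) and its highest that of P1. The difference was −0.25 ± 0.22 over all mice, 0.01 in the positive set and −0.62 in the negative set. Col27a1, a fibrillar collagen known from cartilage, differed by 0.20 ± 0.33 and by −0.08 without the library labelled P2, where it was at 7.69 against 5.98 to 7.03 in the others. Col24a1, a fibrillar collagen of bone, lay under the minimum. The library labelled P2 had a value of 6.96, the other 9 mice 1.99 to 2.67.

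The basement membrane collagens split by chain. Col4a1 and Col4a2, which together build the common network of collagen IV, had lower means in ParkinAdi mice, and the 4 minor chains Col4a3, Col4a4, Col4a5 and Col4a6, which build the networks known from kidney, lung and some epithelia and muscle, had higher means. None of the 6 passed the adjusted test. All 6 kept their direction in both library sets and in every alternative setting tried. In the genome the chains lie in pairs that start head to head (GENCODE M21 on GRCm38). Col4a1 (chr8:11198423-11312826, minus strand) and Col4a2 (chr8:11312805-11449287, plus strand) share 22 bases at their starts. Col4a4 (chr1:82448423-82586849, minus) and Col4a3 (chr1:82586921-82722059, plus) lie 71 bases apart, and Col4a6 (chrX:141165403-141474076, minus) and Col4a5 (chrX:141475385-141689234, plus) by 1308. The sequences of these starts are shown because the 2 chains of each pair start there in opposite directions. They are from RefSeq promoter windows on GRCm38.p6, the first pair of stretches on the plus strand and the others on the strand of the gene. Capitals mark the letters GGGCGG or CCAAT on either strand.
Col4a1/Col4a2, chr8:11312805-11312826: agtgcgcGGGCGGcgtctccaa
Col4a4/Col4a3, chr1:82586850-82586920: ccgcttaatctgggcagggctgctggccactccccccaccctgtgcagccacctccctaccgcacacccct
Col4a6 upstream, chrX:141474077-141474326: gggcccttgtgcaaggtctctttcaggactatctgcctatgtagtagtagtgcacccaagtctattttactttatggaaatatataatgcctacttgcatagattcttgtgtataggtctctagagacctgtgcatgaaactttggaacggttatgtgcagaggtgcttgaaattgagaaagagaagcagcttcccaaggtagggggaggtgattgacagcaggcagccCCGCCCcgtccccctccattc
Col4a5 upstream, chrX:141475169-141475384: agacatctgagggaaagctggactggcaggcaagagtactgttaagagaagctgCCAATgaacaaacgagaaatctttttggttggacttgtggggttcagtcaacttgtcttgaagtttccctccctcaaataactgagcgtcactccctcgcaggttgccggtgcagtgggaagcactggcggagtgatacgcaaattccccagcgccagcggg

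The stretch shared by Col4a1 and Col4a2 holds the letters GGGCGG (the GC box). The stretch between Col4a4 and Col4a3 holds none of the 3 motifs searched. These were the CCAAT box by the letters CCAAT, the GC box by GGGCGG, and the TATA box by TATAAA. Each was searched on both strands and counted whether or not it overlapped another. Promoter windows of 300 bases were found for 28 of the 35 collagens of the Parkin table and for 33 of the 42 of the AAV8 table, in 38 windows. The GC box was in 60.5% of these collagen windows and in 35.7% of all 32851 windows, the CCAAT box in 34.2% against 37.4%, and the TATA box in 13.2% against 13.6%. These shares describe letters and name no bound factor.

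Per kb, Col4a1 had rank 2 among the collagens (3202) and Col4a2 rank 6 (1930). Col4a1 was at 14.80, 14.60, 14.42, 13.97 and 14.28 in C1 to C5 and at 14.61, 14.25, 13.72, 13.58 and 14.38 in P1 to P5. P3 and P4 were the lowest of all 10 mice, and P1, P2 and P5 lay among the Control f/f mice. The difference was −0.31 ± 0.24 over all mice, −0.19 in the positive set and −0.48 in the negative set. Col4a2 was at 14.09, 13.89, 13.66, 13.03 and 13.35 in C1 to C5 and at 13.81, 13.54, 12.63, 12.38 and 13.65 in P1 to P5. Again P3 and P4 lay below every Control f/f mouse and the other ParkinAdi mice did not. The difference was −0.40 ± 0.31, with −0.21 and −0.68 in the sets. The unadjusted p was 0.217 for Col4a1 and 0.224 for Col4a2, and with the set term 0.034 and 0.012. The distance between the 2 chains followed the library set, at 0.71 to 0.80 in the positive and 0.93 to 1.20 in the negative set.

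Col4a6 had the largest difference of the class. It was at 7.46, 7.19, 7.59, 6.66 and 6.12 in C1 to C5 and at 7.74, 8.86, 7.33, 6.91 and 7.75 in P1 to P5. The library labelled P2 was the highest, P1 and P5 were next, and the groups overlapped over all mice. Within each set every ParkinAdi mouse was above every Control f/f mouse. Such separation was found with ParkinAdi higher for 3.92% of all genes in the positive set and for 25.9% in the negative set. The difference was 0.71 ± 0.38 (unadjusted p = 0.086; 95% confidence interval −0.12 to 1.55), 0.71 and 0.73 within the sets, and 0.43 without the library labelled P2. With the set term the unadjusted p was 0.009, and without the library labelled P2 also 0.009. Its head-to-head partner Col4a5 differed by 0.23 ± 0.23 (0.17 and 0.31 in the sets), between 8.49 and 9.54 over all mice.

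Col4a3 was at 7.38, 6.71, 6.71, 5.83 and 5.60 in C1 to C5 and at 6.95, 7.19, 6.18, 6.47 and 7.86 in P1 to P5. C4 and C5 were below every other mouse and P5 above. The difference was 0.48 ± 0.39, with 0.40 and 0.61 in the sets. Its partner Col4a4 differed by 0.41 ± 0.38, with 0.38 and 0.46, and P5 was its highest mouse too (9.07). Without P5, which held duct transcripts, Col4a3 differed by 0.25 and Col4a4 by 0.19, and the part of those transcripts was not tested. The distance between them varied little among the 10 libraries, with Col4a3 minus Col4a4 at −1.49 to −1.06.

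Set against each other within a library, where any shift shared by the chains cancels, the minor chains lay closer to the major chains in ParkinAdi mice. The mean of Col4a3 to Col4a6 minus the mean of Col4a1 and Col4a2 was −6.19, −6.50, −6.22, −6.42 and −7.03 in C1 to C5 and −6.13, −5.41, −5.72, −5.52 and −5.52 in P1 to P5. The groups did not overlap, with P1 (−6.13) just above C1 (−6.19). The highest value (−5.41) was that of the library labelled P2, which held duct and smooth muscle transcripts. The means were −6.47 ± 0.34 (SD) and −5.66 ± 0.28, a difference of 0.81, with 0.62 in the positive set and 1.11 in the negative set. This contrast of chains was formed after the values of the members were seen, so it has no test. No share over contrasts of other genes was taken to set beside its lack of overlap.

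Mesothelial markers also had higher means in ParkinAdi mice. Their mean level was 6.58 to 8.02 in Control f/f and 7.92 to 9.06 in ParkinAdi mice. It was highest in P3 and, among Control f/f mice, in C4. All 12 markers of mesothelium, the cell layer that covers the fat pad, had differences above 0, 10 of them at an unadjusted p of 0.05 (1.46% of all genes were higher) and 0 at the adjusted threshold, and their summed level was 10.50 to 12.31 in Control f/f and 11.88 to 13.37 in ParkinAdi mice (log2). Upk3b, a defining marker, was at 8.38 to 11.005 in Control f/f and at 9.99 to 11.98 in ParkinAdi mice. The part of these cells in the collagen values was not tested, and in bulk tissue fewer or more cells of a type and less or more RNA per cell cannot be told apart. Endothelial cells lie on collagen IV. The summed level of their markers was 13.73 to 14.42 in Control f/f and 13.56 to 14.37 in ParkinAdi mice. Of these markers 7 of 10 were below 0, where 43.1% of all genes tested were, and 0 were at an unadjusted p of 0.05. The defining endothelial marker Pecam1 was at 11.22 to 12.15 over all mice.

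**Figure D2:**
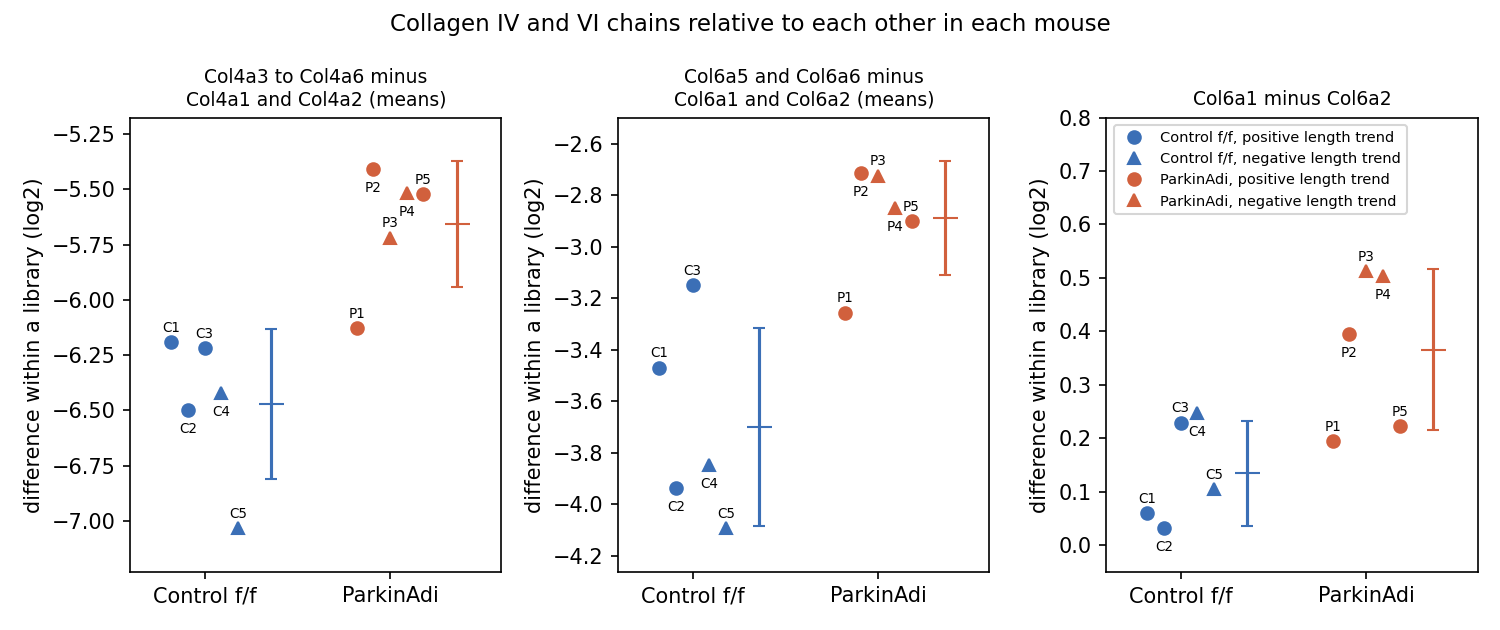
Differences between collagen chains within each library (log2, vertical axes) in 5 Control f/f and 5 ParkinAdi mice, one point per mouse with group mean and SD at the side. In the left panel the genotypes do not overlap (−7.03 to −6.19 against −6.13 to −5.41), in the middle panel P1 lies below C3, and in the right panel the ranges are 0.03 to 0.25 and 0.19 to 0.51.

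Collagen VI gave the lowest p-value of the members. Col6a1 and Col6a2, which are needed for every collagen VI molecule, lie in tandem on chromosome 10 with 85161 bases between them (Col6a1 chr10:76708792-76726168 and Col6a2 chr10:76595762-76623630, both on the minus strand). The letters before their starts are shown because these 2 chains had the lowest unadjusted p-values of the class. They are from the same RefSeq windows on the strand of the gene, cut at the annotated starts, with GGGCGG in capitals on either strand.
Col6a1 upstream, chr10:76726169-76726294: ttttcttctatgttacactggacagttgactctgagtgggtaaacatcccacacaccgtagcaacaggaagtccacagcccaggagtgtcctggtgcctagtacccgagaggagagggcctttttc
Col6a2 upstream, chr10:76623631-76623880: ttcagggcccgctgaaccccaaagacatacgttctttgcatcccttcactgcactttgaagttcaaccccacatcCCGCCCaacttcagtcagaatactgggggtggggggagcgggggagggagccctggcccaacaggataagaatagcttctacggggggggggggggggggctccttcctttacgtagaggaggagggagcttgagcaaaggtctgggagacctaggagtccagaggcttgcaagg

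Col6a2 was at 13.79, 13.78, 13.09, 12.80 and 13.36 in C1 to C5 and at 13.25, 12.84, 12.21, 12.02 and 13.08 in P1 to P5. C1, C2 and C5 were above all ParkinAdi mice, P3 and P4 were below all Control f/f mice, and the rest lay between. The difference was −0.68 ± 0.28 (limma, unadjusted p = 0.033, adjusted p = 0.902; 95% confidence interval −1.31 to −0.06), with −0.50 in the positive set and −0.97 in the negative set. With the set term its unadjusted p was 0.003, and after quantile normalization 0.104. Leaving out C1, C2, C5, P3 or P4 in turn put the unadjusted p between 0.054 and 0.084. Over all mice left out in turn the difference ranged from −0.83 to −0.52.

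Col6a1 was at 13.85, 13.81, 13.32, 13.05 and 13.46 in C1 to C5 and at 13.44, 13.24, 12.72, 12.52 and 13.30 in P1 to P5. C1, C2 and C5 were again above every ParkinAdi mouse. The difference was −0.45 ± 0.22 (unadjusted p = 0.067), −0.33 and −0.63 within the sets, with an unadjusted p of 0.006 with the set term. Col6a1 lay above Col6a2 in every library, by 0.03 to 0.25 in Control f/f mice and by 0.19 to 0.51 in ParkinAdi mice.

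The third position of collagen VI can be filled by Col6a3, whose cleaved end is the adipose signal endotrophin, or by Col6a4, Col6a5 or Col6a6, which lie in tandem on chromosome 9. Col6a3 was at 11.24 to 12.71 in Control f/f and at 11.13 to 11.83 in ParkinAdi mice, a difference of −0.19 ± 0.27 that was 0.05 without mouse C1, the highest. Col6a5 was at 9.75 to 11.54 and at 10.39 to 11.46, a difference of 0.31 ± 0.34 (0.15 and 0.56 in the sets). Col6a6 differed by 0.17 ± 0.20 (0.14 and 0.21). Per kb, Col6a3 stood at 366, Col6a5 at 235 and Col6a6 at 55.1 by the authors' mean normalized count, against 2631 for Col6a1 and 2099 for Col6a2. Col6a4 was under the minimum, at 2.23 to 4.03.

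Within a library, the mean of Col6a5 and Col6a6 minus the mean of Col6a1 and Col6a2 was −4.09 to −3.15 in Control f/f mice and −3.26 to −2.71 in ParkinAdi mice. The groups overlapped through C3 (−3.15) and P1 (−3.26). The difference of the means was 0.81, with 0.56 in the positive set and 1.18 in the negative set. This contrast too was formed after the values were seen.

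**Figure D3:**
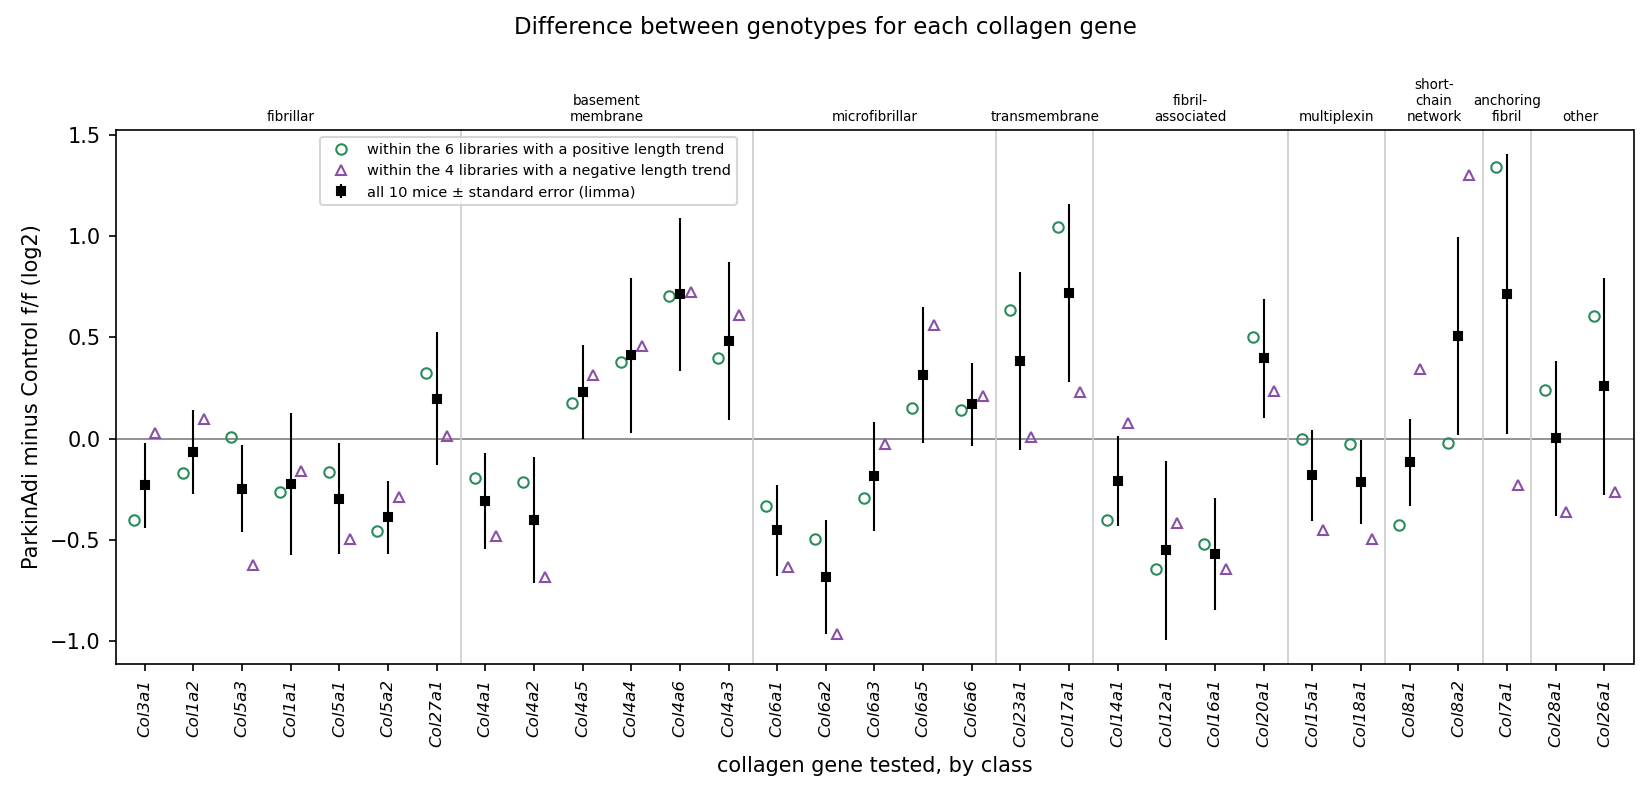
Difference between ParkinAdi and Control f/f mice (log2, vertical axis) for the 31 collagen genes tested (horizontal axis, by class). Squares are differences over all 10 mice with the standard error from limma, circles and triangles the differences within the 6 libraries with a positive and the 4 with a negative trend along exon length. Col4a1 and Col4a2 sit below 0 and Col4a3 to Col4a6 above in all 3 series, Col6a2 is the lowest square (−0.68), and Col7a1 and Col8a2 change side between the sets.

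The transmembrane collagens of the Parkin table were Col23a1 and Col17a1. Col23a1 was at 7.81, 7.80, 8.40, 7.38 and 6.96 in C1 to C5 and at 8.33, 9.54, 7.13, 7.22 and 8.04 in P1 to P5. The library labelled P2 was the highest by 1.14, and the other ParkinAdi mice lay within the Control f/f range. The difference of 0.38 ± 0.44 was 0.01 without that library. Col17a1, a collagen of the attachment sites of epithelial cells, was at 3.41 to 4.26 in Control f/f mice and at 3.94, 6.45, 4.34, 4.03 and 4.58 in P1 to P5, again with P2 alone at the top. Its difference was 0.72 ± 0.44, and 0.27 without P2. The class median of 0.55 was 0.14 without P2.

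Fibril-associated collagens, which sit on the surface of collagen I fibrils or link them to other matrix, had mostly lower means in ParkinAdi mice. Col16a1 was at 9.71, 9.50, 8.59, 8.47 and 8.99 in C1 to C5 and at 8.50, 8.75, 8.28, 7.89 and 8.98 in P1 to P5. C1, C2 and C5 were above all ParkinAdi mice, as in Col6a1 and Col6a2. The difference was −0.57 ± 0.28 (unadjusted p = 0.065), −0.52 and −0.65 within the sets. Col12a1 differed by −0.55 ± 0.44 and ranged widely in Control f/f mice, from 7.998 in C4 to 10.28 in C1. Col14a1 differed by −0.21 ± 0.22, with −0.40 in the positive set, where the genotypes did not overlap, and 0.08 in the negative set. In the positive set 5.29% of all genes had ParkinAdi below Control f/f without overlap. Col20a1 differed by 0.40 ± 0.29, and by 0.15 without P2, and Col9a3, a cartilage collagen under the minimum, was at 1.87 to 2.67.

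The multiplexins Col15a1 and Col18a1 lie at the outer face of basement membranes, and the cleaved end of Col18a1 is endostatin. Col15a1 had rank 4 among the collagens per kb (2199). It was at 13.23 to 13.66 in Control f/f mice and at 13.94, 13.35, 12.80, 12.83 and 13.53 in P1 to P5. P3 and P4 were the lowest of all mice and P1 the highest. The difference was −0.18 ± 0.22, 0.00 in the positive set and −0.45 in the negative set. Col18a1 gave −0.21 ± 0.21, with −0.03 and −0.49, and the same 3 mice at its ends. In the negative set the genotypes did not overlap in 12 of the 31 genes with ParkinAdi lower (Col5a3, Col1a1, Col5a1, Col5a2, Col4a1, Col4a2, Col6a1, Col6a2, Col16a1, Col15a1, Col18a1 and Col28a1) and in 6 with ParkinAdi higher (Col4a3, Col4a5, Col4a6, Col6a5, Col6a6 and Col8a2), where 24.2% and 25.9% of all genes did so with 2 mice per genotype.

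The short-chain collagens form hexagonal lattices, as under the endothelium of the cornea. Col8a2 was at 7.98, 7.47, 6.60, 5.70 and 5.49 in C1 to C5 and at 7.07, 6.68, 6.86, 6.93 and 8.23 in P1 to P5. The Control f/f mice spread more widely (SD 1.08) than the ParkinAdi mice (SD 0.62), and the lowest values were those of C4 and C5. The difference was 0.51 ± 0.49, but −0.02 in the positive and 1.3 in the negative set. It was 0.24 without P5, the highest mouse and one with raised duct transcripts, whose part was not tested. C5, the lowest mouse for Col8a2, had the highest mean level of duct markers after P2 and P5 (7.62). P5 was the highest of the 10 mice in 5 of the 31 genes tested, a larger share than the 6.52% of all genes in which it was highest. Its partner Col8a1 differed by −0.12 ± 0.21, with −0.42 and 0.34. Col10a1, the collagen of hypertrophic cartilage, was under the minimum at 1.73 to 3.60.

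Col7a1, which forms the anchoring fibrils under stratified epithelium, was at 2.76 to 3.53 in Control f/f mice and at 2.78, 6.84, 2.80, 2.93 and 3.84 in P1 to P5. Its difference of 0.71 ± 0.69 was −0.04 without P2. Col28a1, known from peripheral nerve, differed by 0.00 ± 0.38, with a 95% confidence interval of −0.84 to 0.84. Col26a1 was at 5.71 in P2 and at 2.52 to 3.98 in the others, with a difference of 0.26 ± 0.53 and of −0.26 without P2. Over all 31 genes tested, P2 was the highest of the 10 mice in 8 (21.5% of all genes tested did so), and the summed levels of duct markers (20.21 against 8.71 to 11.99) and of smooth muscle markers (16.63) were highest in the same library. Single markers differed in this, with Rnase10 and Defb20 highest in P5 and Rgs5 in P1. Their part in its collagen values was not tested.

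**Figure D4:**
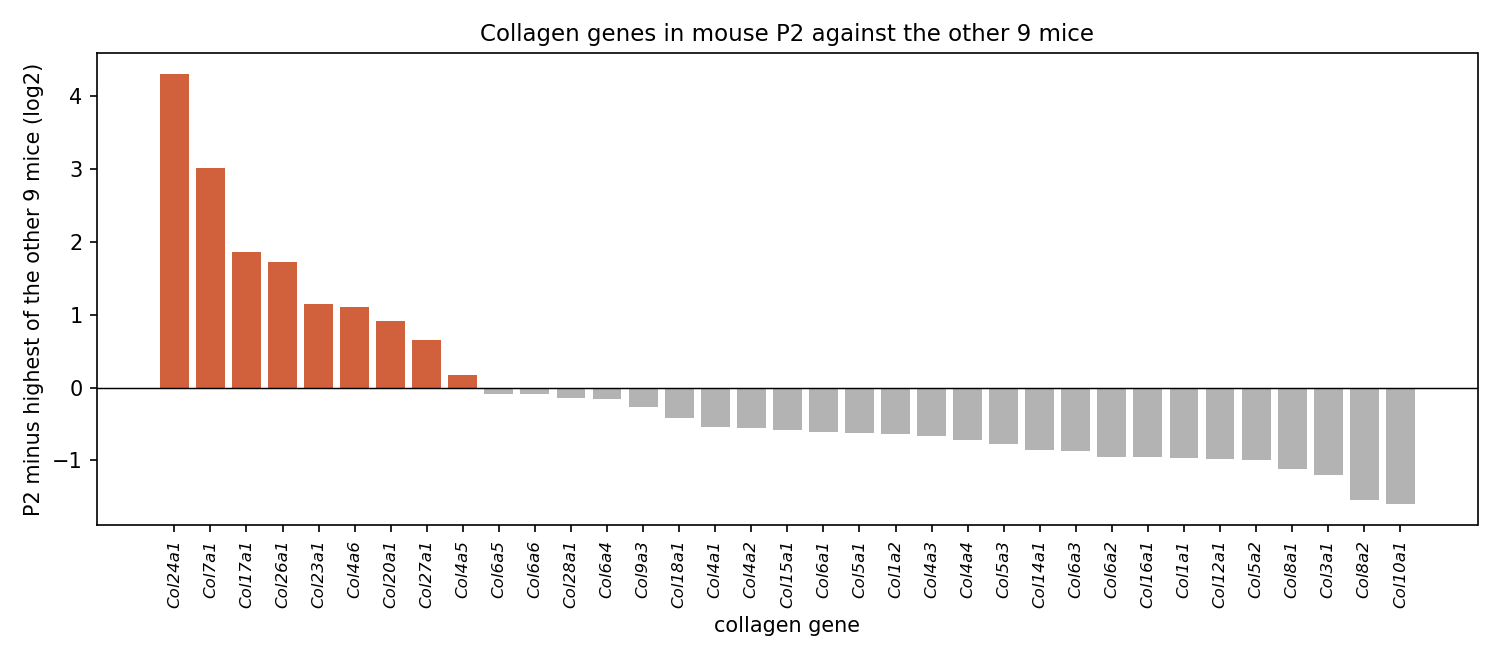
Rlog value of each collagen gene in the library labelled P2 minus the highest value among the other 9 mice (log2, vertical axis; genes ordered by it on the horizontal axis). Bars above 0 (orange) are genes in which P2 is the highest of all mice. Col24a1 (6.96 against at most 2.67), Col7a1, Col17a1 and Col26a1 stand out, and Col3a1, Col5a2 and Col1a1 are on the other side.

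The genes that make, mature and bind collagen were counted in 8 lists, of whose 105 members 101 were tested. At an unadjusted p of 0.05, 8 were lower and 1 higher in ParkinAdi mice, against 3.56% and 1.46% of all genes, and 0 passed the adjusted threshold. Among the 19 enzymes and chaperones that modify the chains, 4 were lower and 1 higher. Plod3 and Plod1, which hydroxylate lysines of the chain, differed by −0.41 ± 0.11 (unadjusted p = 0.0036) and −0.41 ± 0.12, and Colgalt1, which adds galactose to those lysines, by −0.35 ± 0.15. Plod3 was at 11.31, 11.40, 11.18, 11.36 and 11.37 in C1 to C5 and at 11.18, 10.81, 10.84, 10.80 and 10.96 in P1 to P5. Only P1 came near the Control f/f mice, and it lay below C3 by less than 0.01, so the groups did not overlap. With ParkinAdi lower, 0.757% of all genes tested did not overlap. The limma adjusted p of Plod3 was 0.620.

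Of 7 procollagen proteases and enhancers, 4 were below 0, where 43.1% of all genes tested were. At an unadjusted p of 0.05, 1 was lower, where 3.56% of all genes were. Pcolce2, which enhances the removal of the procollagen end, was at 11.34, 11.92, 11.01, 11.43 and 12.07 in C1 to C5 and at 10.56, 10.31, 11.07, 10.70 and 10.43 in P1 to P5. P3 and C3 were the only mice to cross. The difference was −0.94 ± 0.22 (unadjusted p = 0.0012, limma adjusted p = 0.620). Bmp1, the protease itself, differed by −0.35 ± 0.17. Of 5 lysyl oxidases, which cross-link the fibres, 4 were below 0 and 0 reached the unadjusted threshold, with Lox at −0.57 ± 0.29.

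Of the collagen receptors, 8 of 12 were below 0. Mrc2, an endocytic receptor that clears collagen fragments, was at 11.28, 11.29, 9.94, 9.60 and 11.05 in C1 to C5 and at 9.76, 9.94, 9.28, 9.05 and 9.52 in P1 to P5. C1, C2 and C5 stood more than 1 unit above every other mouse, the same 3 Control f/f mice that led in Col6a1, Col6a2 and Col16a1. The difference was −1.12 ± 0.35 (unadjusted p = 0.0081, limma adjusted p = 0.660). Laminins and other partners in the basement membrane had 8 members below and 8 above 0 with a median of 0.02, and Lamb3, a laminin chain of epithelium, differed by −0.72 ± 0.19. Of 17 matrix glycoproteins 1 was lower at the unadjusted threshold (Fbln2, −0.33 ± 0.15), and Sparc, a collagen-binding protein made by adipocytes and other cells, differed by −0.44 ± 0.23. Of 9 small leucine-rich proteoglycans and 16 genes of TGF-beta signalling, a pathway that raises collagen transcription, 0 reached it, with Fmod at 0.58 ± 0.28 and Tgfb1 at −0.37 ± 0.20.

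Fibroblast and progenitor markers had a median difference of 0.00 over 10 genes, and their summed level was 14.46 to 14.93 in Control f/f and 14.15 to 15.13 in ParkinAdi mice. All 8 markers of lipid-associated macrophages were below 0, with a median difference of −1.30 and 5 at an unadjusted p of 0.05 (3.56% of all genes were lower). Their mean level was 10.15 to 11.81 in Control f/f and 9.86 to 10.19 in ParkinAdi mice, groups that overlapped through C3 and P5, with a summed level of 17.97 to 18.37 in Control f/f and 17.60 to 18.31 in ParkinAdi mice, and 9 of 10 general macrophage markers were below 0 (summed 15.07 to 15.72 and 14.51 to 15.58). Their part in the collagen values was not tested.

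The AAV8 experiment gave levels only, because its table holds a mean normalized count over both vectors and the authors' own comparison, which was not used. The 7 collagens it lists beyond those of the Parkin table were Col2a1, Col11a1 and Col11a2 (fibrillar, known from cartilage), Col13a1 and Col25a1 (transmembrane), and Col19a1 and Col22a1 (fibril-associated). All were low, from 0.796 per kb for Col19a1 to 15.97 per kb for Col13a1. Col3a1 (30987 per kb) and Col4a1 (29805) led here as in the Parkin table, followed by Col4a2 (20425), Col6a1 (17613) and Col6a2 (16373). The 2 tables were normalized separately, so only the order and the shares can be set side by side.

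Across the 35 genes in both tables the levels per kb had a Spearman rho of 0.984. The points share the tissue, the diet, the pipeline and the transcript length used for scaling. Of the summed level of all collagens per kb, fibrillar genes took 38.9% in the Parkin and 37.6% in the AAV8 table, basement membrane genes 22.7% and 28.5%, microfibrillar genes 23.0% and 21.4%, and the multiplexins 12.8% and 9.73%. Transmembrane genes took 0.273% and 0.155%. Col4a2 had rank 3 in the AAV8 and rank 6 in the Parkin table, and Col15a1 ranks 6 and 4. Col6a4 was at rank 28 in the AAV8 and at rank 35 in the Parkin table, and Col24a1 at 39 and 32. With no value per pad, these differences in order have no error and no test.

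**Figure D5:**
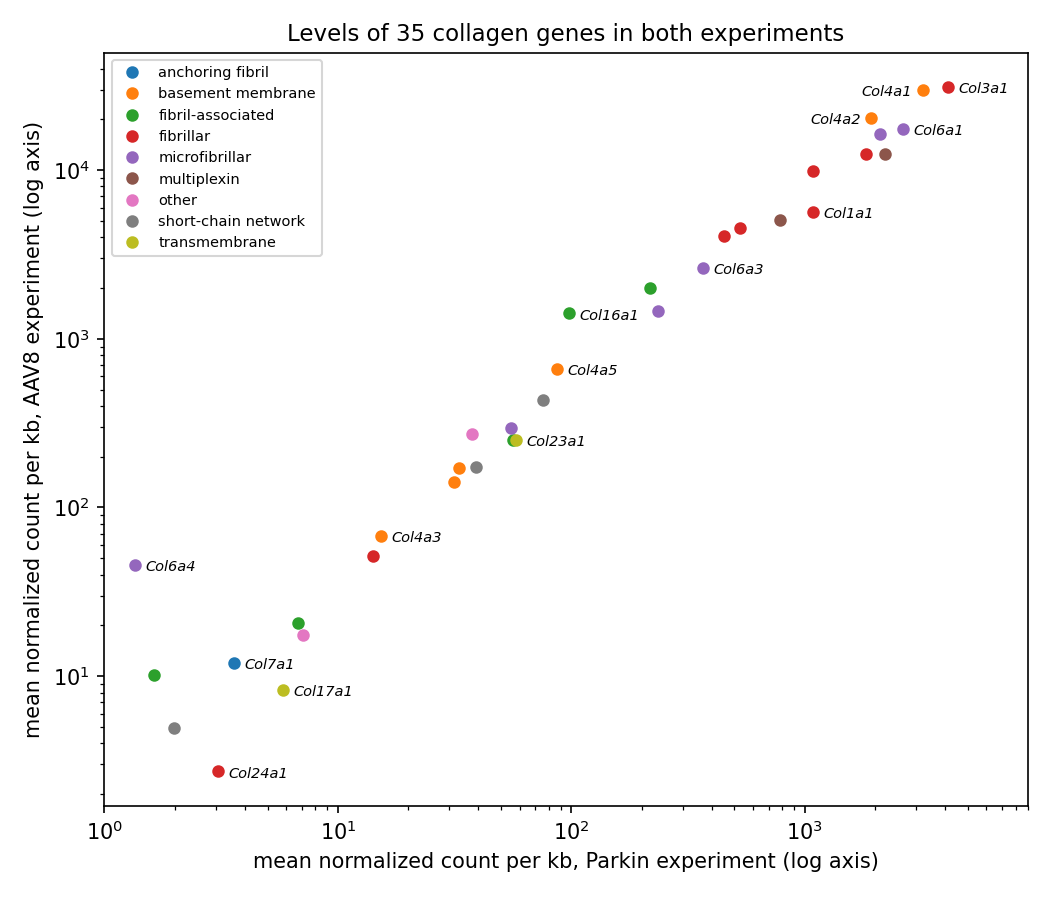
Authors' mean normalized count per kb of transcript for the 35 collagen genes listed in both experiments, Parkin (horizontal) against AAV8 (vertical), both on log axes, coloured by class. Col3a1 and Col4a1 are the highest in both, and Col6a4 lies above the trend of the other genes.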

How the data were processed

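RNA of frozen eWAT (RIN above 7.0) was made into mRNA libraries, combined in 2 pools and sequenced on a HiSeq 3000. The authors aligned and counted reads with Rsubread 2.4.2 on GRCm38 (annotation 97) and analysed counts with DESeq2 1.30.0. The strand setting of the counting was not stated, so reads over the shared start of Col4a1 and Col4a2 cannot be assigned. For the Parkin experiment the authors deposited regularized log values (log2 scale) per library. The deposited tables of both comparisons also hold a mean normalized count per gene, a signal without a fixed total, beside fold changes, test statistics and p-values of the authors, which were not used. A legend of the study names fewer mice per genotype than there are deposited libraries, so which libraries entered the authors' mean is unknown. All deposited libraries were used here. Raw counts were not analysed here, so depth is unknown.

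The genotype test was run in limma 3.58.1 under R 4.3.3 (intensity trend, no covariate, mean of at least log2 of 10), and tried on simulated data. Those data had no library sets, so the trial does not cover that structure. A minority of added log2 differences of 0.5 or 1 were called there, and so were some genes without one. Levels between genes were scaled by the longest protein-coding transcript of GENCODE M21. Tables were made with Python 3.11.15 and pandas 2.3.3. Any collagen gene could be named, as could the 3 members of each other list with the smallest p and the 2 markers first in each marker list. The collagen genes and the 18 lists (201 entries) were chosen with earlier results of these data known. Alternatives were other minima (none, 50), quantile normalization, median centring, robust moderation, library weights, no intensity trend, a set term, removal of the length trend, an unadjusted p of 0.01, each set alone and each mouse left out. The set term and the length correction without P2 were added after seeing the data. The level of the targeted gene is not reported here.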

Additional observations from a re-analysis of the deposited data

Results flagged for a closer look

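In 70 groups of 5 values (35 collagen genes in each genotype) the highest or lowest mouse was set against the others by Dixon's criterion, which chance meets in about 1 of 20 groups. It was met 4 times, each for the highest ParkinAdi mouse, and 3 of these were the library labelled P2. Col24a1 was at 6.96 there against 1.99 to 2.67 in the other ParkinAdi mice. Col17a1 was at 6.45 against 3.94 to 4.58, and Col7a1 at 6.84 against 2.78 to 3.84. The fourth was Col8a2 in P5, at 8.23 against 6.68 to 7.07. The library labelled P5 also held duct transcripts (Rnase10 at 10.81), whose part was not tested.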

How the results depend on the processing

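In the 21 settings with a test no collagen gene passed the adjusted threshold. Of the 31 genes tested, 17 kept the sign of their difference in each of the 23 settings that gave them a value (8 below and 9 above 0), the 6 of collagen IV among them. Col17a1 and Col20a1 of these 17, as well as Col7a1 and Col26a1, had no value at a minimum of 50. The count of collagens lower at an unadjusted p of 0.05 (1 as reported) was 4 with median centring, 5 with library weights, 7 with the set term, 4 with the length trend removed, 4 with that trend removed and without mouse P2, 5 with the set term without P2, and 0 at a p of 0.01. It was 0 without C1, C2, P3 or P4, 2 without C3 or P5, and 4 without C4 or P1 (range 0 to 4). The count higher (0) was 3 with library weights, 2 with the set term, 1 with the length trend removed (also without P2), 3 with the set term without P2, and 0 to 1 with a mouse left out (1 without P4). Over all genes 543 passed the threshold with library weights, which gave C2 a weight of 12.4 against 0.302 to 2.54 for the others, and 0 to 11 with a mouse left out (11 without C3). The cause of these shifts was not tested.

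Some differences changed sign. Within the negative set Col3a1 was 0.028, Col1a2 0.095, Col14a1 0.077, Col8a1 0.34, Col7a1 −0.23, Col28a1 −0.36 and Col26a1 −0.26, and within the positive set Col5a3 was 0.0053 and Col8a2 −0.024. With library weights Col5a3 was 0.048, Col15a1 0.078, Col18a1 0.028 and Col26a1 −0.15. Col28a1 was −0.016 with median centring and −0.054 with quantile normalization. With the length trend removed and without P2, Col27a1 was −0.0070, Col8a1 0.074, Col28a1 −0.12 and Col26a1 −0.19. With the set term and without P2, Col27a1 was −0.049, Col8a1 0.025, Col7a1 −0.014, Col28a1 −0.054 and Col26a1 −0.25. With each mouse left out in turn, Col1a2 ranged from −0.18 to 0.085, Col1a1 from −0.40 to 0.026, Col27a1 from −0.077 to 0.36, Col6a3 from −0.32 to 0.045, Col8a1 from −0.25 to 0.012, Col7a1 from −0.036 to 0.98, Col28a1 from −0.20 to 0.26 and Col26a1 from −0.26 to 0.53. The class medians ranged from −0.31 to −0.08 (fibrillar), 0.16 to 0.50 (basement membrane), −0.32 to 0.05 (microfibrillar) and 0.14 to 0.74 (transmembrane).

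No paired analysis was possible because the deposited columns carry mouse numbers that no label gives. The rlog scale keeps no depth, so the precision of the low genes (Col24a1, Col6a4, Col9a3, Col10a1) is unknown.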
